A study of Homo sapiens with 3 samples.

Results

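YAP1, its DNA-binding partner TEAD1 and 7 genes known as YAP-TEAD targets or regulators were followed in HCT116 cells with and without shRNA against circRAPGEF5. The genes were taken by symbol from a table of 15625 genes, and all 9 were found: YAP1, TEAD1, CCN1, CCN2, ANKRD1, AMOTL1, AMOTL2, LATS2 and AJUBA. HCT116 is a human colorectal cancer line, and circRAPGEF5 is a circular RNA named after the gene RAPGEF5. Messenger RNA was sequenced in 3 libraries, 1 from cells given a control shRNA (sh_control) and 2 from cells given the knockdown shRNA (sh_circRAPGEF5_1 and sh_circRAPGEF5_2). All 3 carry the genotype label MT, whose meaning the labels do not give. Cells of every library were transfected with a purchased shRNA system and collected at 36 or 48 h, and the time of each library is not stated. Whether the knockdown libraries differ by hairpin, by culture or only by library is not stated either. The circular RNA itself was not analysed here, so the knockdown was not checked.

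YAP1 is a transcriptional coactivator that does not bind DNA itself and acts through the TEAD transcription factors. The Hippo pathway restrains it: the kinases encoded by STK3 and STK4 activate LATS1 and LATS2, which phosphorylate YAP1 and keep it out of the nucleus. When YAP1 is nuclear, genes such as CCN1, CCN2 and ANKRD1 are transcribed. Several targets, among them LATS2, AMOTL2 and AJUBA, feed back on the pathway, so their RNA is both an output and a regulator. In the intestinal epithelium the pathway is known for its part in regeneration and in tumour growth. YAP1 activity is set largely by phosphorylation and location of the protein, which RNA levels do not measure.

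Levels are given in FPKM (fragments counted per kilobase of gene length and adjusted for library depth), so levels can be compared between genes. Each knockdown library was set against the control as a difference of log2(FPKM + 1), a scale that understates the change of weakly expressed genes. Every count of genes at least 2-fold from the control, or 2-fold apart between the knockdown libraries, is on this scale of FPKM + 1. The limma test was run over the 11216 genes with a mean of at least 1 FPKM, and 8 of the 9 genes passed this filter. ANKRD1 did not. CCN2, below 1 FPKM in the control, passed only through the knockdown libraries, so it had to be higher there, and the counts and medians over the 8 genes are given as descriptions. Depth was even, with at least 14632390 to 15758794 reads behind the values of a library. Both knockdown libraries share the 1 control, which has no replicate and thus no SD. The test's own estimate of scatter comes from the pair of knockdown libraries alone, is moderated by limma with the scatter of the other genes, and may be technical. Of the 8 colorectal epithelial markers checked, EPCAM, KRT8, KRT18 and KRT19 were at 170.0 FPKM or more in every library, while VIL1 was at or near 0 and KRT20 at no more than 1.96 FPKM. The summed epithelial markers were at 2286 FPKM in the control, with 2552 in knockdown library 1 and 3883 in library 2. Of 7 fibroblast markers 2 were in the table, with a sum of 13.5 FPKM in the control against 4.71 in library 1 and 8.43 in library 2, nearly all of it COL1A1. The sums were thus lower (fibroblast) and higher (epithelial) in both knockdown libraries, and their part in the values below was not tested. Of the epithelial markers, only KRT8, KRT18 and KRT19 were higher in both. CDH1 was lower in both, at 33.1 FPKM in the control, 20.3 in library 1 and 26.7 in library 2. EPCAM, CDX2 and KRT20 were lower in library 1 and higher in library 2. Endothelial and leukocyte markers summed to at most 0.216 FPKM in any library.

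None of the 8 tested genes passed the test. CCN2, TEAD1, AMOTL2 and CCN1 were higher than the control in both knockdown libraries, which is 4 of 8 genes against 31.7% of all genes tested. AJUBA was lower in both, 1 of 8 against 37.6% of all genes. YAP1, AMOTL1 and LATS2 lay on opposite sides of the control, 3 of 8 against 30.7% of all genes. limma called 0 of the 8, against 0.0178% of all genes (2 genes), and the 8 adjusted p-values (Benjamini-Hochberg) ran from 0.763 to 0.996. None of the 8 had an unadjusted p under 0.05, as 793 of all genes tested did. On the scale of FPKM + 1, at least 2-fold higher in both libraries were 0 of the 8 and 1.21% of all genes (CCN2 was past 2-fold only as a ratio of plain FPKM), and at least 2-fold lower in both were 0 of the 8 and 1.7% of all genes. The median log2 difference of the 8 genes was 0.26, against -0.05 over all genes tested. It was 0.49 in knockdown library 1 and 0.04 in knockdown library 2, so the median came mainly from library 1. Without CCN2 the median of the other 7 was 0.23.

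**Figure D1:**
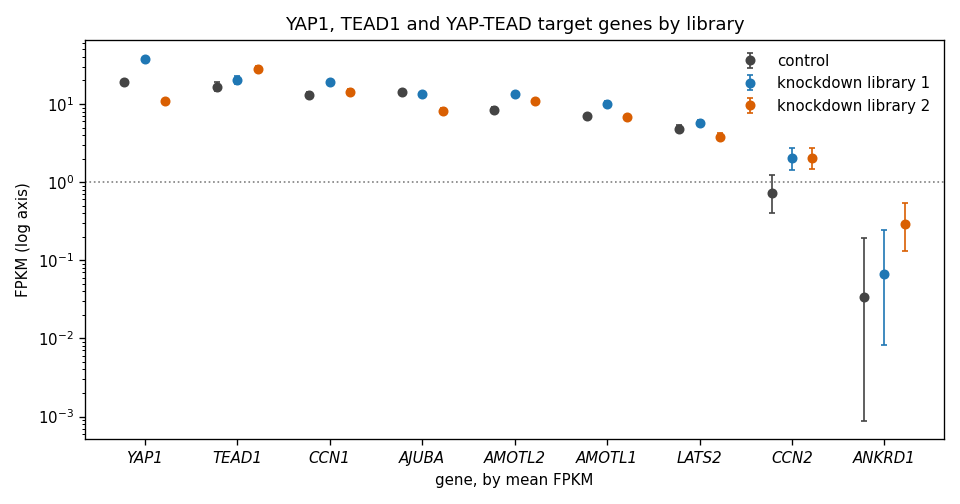
FPKM (log axis) of the 9 genes in the control and the 2 knockdown libraries, ordered by mean; bars are exact 95% Poisson intervals of the smallest whole reads behind each value and cover counting error only, and the dotted line is 1 FPKM. YAP1 spans 11.0 to 37.2 FPKM, while ANKRD1 stays below 0.3 FPKM.

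Of the 8 tested genes, YAP1 itself was the one on which the knockdown libraries differed most. YAP1 (Entrez 10413, plus strand of chromosome 11 at 102110461 to 102233423 in GRCh38, GENCODE 29) was at 19.1 FPKM in the control, with 37.2 in knockdown library 1 and 11.0 in library 2. The control thus lay between the knockdown libraries. Knockdown library 1 was 1.95 times the control (95% counting interval 1.84 to 2.06) and knockdown library 2 was 0.577 times the control (0.536 to 0.620). The mean log2 difference was 0.09 ± 0.58 (SE), with a limma adjusted p of 0.988. Between the knockdown libraries YAP1 differed 3.38-fold (counting interval 3.16 to 3.61), or 1.67 on the log2 scale of FPKM + 1. It was the only one of the 8 genes at least 2-fold apart between them, where 8.99% of all genes were. Of all genes tested, 1.26% (141, YAP1 included) were at least as far apart. With 1 library on each side this difference has no replicate check and no test.

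TEAD1 (Entrez 7003, chromosome 11, 12674591 to 12944483, plus strand), which encodes a transcription factor that brings YAP1 to DNA, was at 16.6 FPKM in the control, with 20.5 in knockdown library 1 and 28.1 in library 2. Both knockdown libraries were above the control, library 2 by more. The mean log2 difference was 0.50 ± 0.41 (SE), and limma's adjusted p was 0.856. TEAD1 and YAP1 therefore had opposite orders in the knockdown libraries: library 1 was the higher for YAP1 and library 2 for TEAD1.

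**Figure D2:**
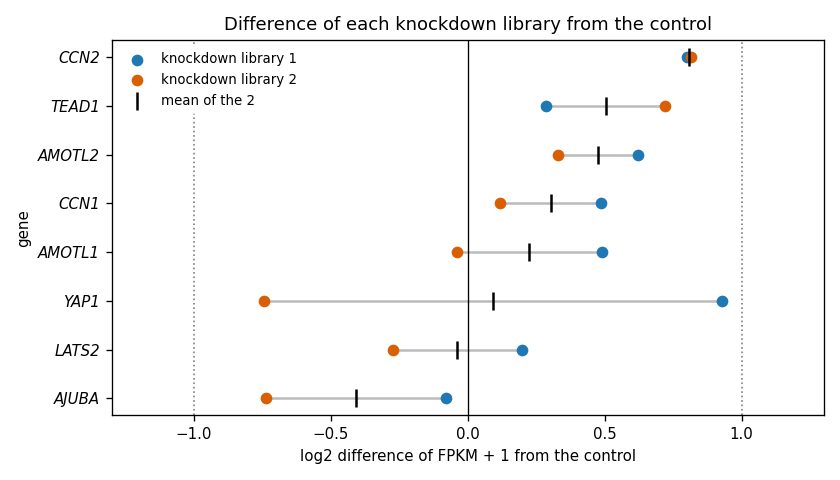
Log2 difference of FPKM + 1 from the control for the 8 tested genes, with 1 point per knockdown library and a tick at their mean; dotted lines mark 2-fold. CCN2 has nearly equal differences (0.80 and 0.81), YAP1 the widest gap (0.93 and -0.74).

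Among the classical secreted targets, CCN2 showed the largest mean log2 difference of the 8 genes on the scale of FPKM + 1. Its knockdown libraries were close to each other. CCN2 passed the filter only through these libraries, so its rank is a description. CCN2 (Entrez 1490, chromosome 6, 131948176 to 131951373, minus strand; CTGF in GENCODE 29) encodes a matricellular growth factor-binding protein. It was at 0.735 FPKM in the control, with 2.02 in knockdown library 1 and 2.05 in library 2. Both knockdown libraries lay above the control. They were 2.75 times (95% counting interval 1.46 to 5.48) and 2.79 times (1.49 to 5.53) the control, from at least 14, 39 and 42 reads. On the scale of FPKM + 1 the mean log2 difference was 0.81 ± 0.44 (SE), with a limma adjusted p of 0.763 and an unadjusted p of 0.0921. With a pseudocount of 0.1 the difference was 1.35, and with 5 it was 0.29. With 5 it was no longer the largest in size: TEAD1 was at 0.43, AMOTL2 at 0.35 and AJUBA at -0.31. The knockdown mean was 2.04 ± 0.022 FPKM (SD, n = 2), a spread below the counting error of either library.

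The CCN2 promoter is shown because this gene had the largest difference and because its TEAD elements are well known. The 250 bases before the RefSeq start (GRCh38.p14, chr6:131951373-131951622, minus strand) are written 5′ to 3′, with matches to the TEAD core GGAATG in capitals.

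CCN2: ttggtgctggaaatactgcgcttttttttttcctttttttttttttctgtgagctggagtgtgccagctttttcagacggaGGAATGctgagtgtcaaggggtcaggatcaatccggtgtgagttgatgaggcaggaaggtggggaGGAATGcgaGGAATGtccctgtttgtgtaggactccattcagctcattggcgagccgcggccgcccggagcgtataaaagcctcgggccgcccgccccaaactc

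The core occurred 3 times, beginning 169, 104 and 95 bases before the start. All 3 had the orientation of the gene. The last pair began 9 bases apart.

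CCN1 (Entrez 3491, chromosome 1, 85580761 to 85583962, plus strand; CYR61 in GENCODE 29), a related matricellular gene that is also an immediate-early gene, was at 13.1 FPKM in the control, with 18.8 in knockdown library 1 and 14.3 in library 2. Library 1 was 1.43 times the control (counting interval 1.28 to 1.61), while library 2 was 1.09 times the control with an interval, 0.965 to 1.23, that spans equality. CCN1 had a mean log2 difference of 0.30 ± 0.42 (SE) and a limma adjusted p of 0.927. By mean FPKM over the libraries, CCN1 was at 15.4 and CCN2 at 1.60.

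ANKRD1 (Entrez 27063, chromosome 10, 90912096 to 90921276, minus strand) encodes a nuclear ankyrin repeat protein of muscle and injured tissue, and is a common YAP-TEAD reporter gene. It was at 0.0343 FPKM in the control, with 0.0676 in knockdown library 1 and 0.287 in library 2. The smallest reads behind these values were 1, 2 and 9, so no fold is given for library 1, where both values rest on fewer than 3 reads. Library 2 was 8.37 times the control, which rests on 1 read, with a counting interval from 1.16 to 367, which leaves the size of the difference undetermined at this depth. ANKRD1 fell below the filter and was not tested.

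The ANKRD1 promoter is printed beside that of CCN2 to show that the same core stands before a gene with almost no RNA in these cells. The 250 bases before the start are at chr10:90921088-90921337, minus strand, from the same RefSeq table, with the TEAD core in capitals. This RefSeq start lies inside the GENCODE span of the gene, which covers part of these bases.

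ANKRD1: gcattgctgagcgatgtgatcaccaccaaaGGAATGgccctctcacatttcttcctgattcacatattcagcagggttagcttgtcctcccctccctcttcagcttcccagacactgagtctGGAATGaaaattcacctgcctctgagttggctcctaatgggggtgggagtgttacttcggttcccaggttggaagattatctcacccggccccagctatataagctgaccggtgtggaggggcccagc

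The TEAD core occurred at 220 and 128 bases before the start. A match to the AP-1 motif, searched as TGANTCA with any base at N, began 195 bases before the start. Its letters were TGATTCA, and it did not overlap either TEAD core.

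The angiomotin-like genes encode junction proteins that bind YAP1 and hold it at junctions and in the cytoplasm. AMOTL2 (Entrez 51421, chromosome 3, 134355874 to 134375479, minus strand) was at 8.49 FPKM in the control, with 13.6 in knockdown library 1 and 10.9 in library 2. Both knockdown libraries were above the control, at 1.60 times (counting interval 1.46 to 1.76) and 1.29 times (1.17 to 1.41). A mean log2 difference of 0.48 ± 0.42 (SE) had a limma adjusted p of 0.867. AMOTL1 (Entrez 154810, chromosome 11, 94706431 to 94876753, plus strand) was at 6.93 FPKM in the control, with 10.1 in knockdown library 1 and 6.72 in library 2. Only library 1 was above the control, and the ratio of library 2 to the control, 0.970, had an interval of 0.863 to 1.09. AMOTL1 had a mean log2 difference of 0.23 ± 0.44 (SE), limma adjusted p 0.95.

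LATS2 (Entrez 26524, chromosome 13, 20973032 to 21061547, minus strand), one of the kinases that phosphorylate YAP1 and at the same time a YAP-TEAD target, was at 4.84 FPKM in the control, with 5.69 in knockdown library 1 and 3.83 in library 2. The control lay between the knockdown libraries, as it did for YAP1, though the 2 libraries were closer together. The mean log2 difference was -0.04 ± 0.45 (SE), limma adjusted p 0.996, and it was above 0 with quantile normalization (0.092) and with median-ratio rescaling (0.037). AJUBA (Entrez 84962, chromosome 14, 22971174 to 22982642, minus strand), a LIM-domain scaffold that binds and inhibits LATS kinases, was at 14.3 FPKM in the control, with 13.5 in knockdown library 1 and 8.17 in library 2. It was the only one of the 8 below the control in both libraries. Library 1 was close to the control, at 0.944 times (counting interval 0.866 to 1.03), and library 2 was at 0.572 times (0.519 to 0.630). AJUBA had a mean log2 difference of -0.41 ± 0.44 (SE), limma adjusted p 0.897. YAP1, AMOTL1, LATS2, AJUBA, AMOTL2 and CCN1 were all higher in knockdown library 1 than in library 2, by log2 differences of 0.29 to 1.67. TEAD1 and CCN2 were the exceptions, with library 1 minus library 2 at -0.43 and -0.015. The share of all genes tested that was higher in library 1 was not counted, so this order is a description only.

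By mean FPKM over the 3 libraries the order was YAP1 (22.4), TEAD1 (21.7), CCN1 (15.4), AJUBA (11.98), AMOTL2 (11.0), AMOTL1 (7.93), LATS2 (4.79), CCN2 (1.60) and ANKRD1 (0.130). From YAP1 down to AMOTL1 the ranges of neighbours overlapped, so their order is not settled by these libraries. AMOTL1, LATS2 and CCN2 each had a range that did not overlap with that of the next gene down.

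The RefSeq promoter table (GRCh38.p14, 250 bases before to 50 bases after each start, 300 bases in all) held windows for 7 of the 9 genes, 9 windows in total since AJUBA and AMOTL2 each have 2 starts. The TEAD core GGAATG, searched on both strands, was in 6 of these windows, 1 for each gene except AMOTL1. The only AMOTL1 window was set on a start (94768356) inside the GENCODE span of that gene. Bases before its GENCODE start were therefore not searched. The TEAD core was in 14% of the 35116 windows of the whole table. The AP-1 motif was in 7.71% and the CArG box, the element bound by SRF, in 1.29% of all windows. Among the 9 windows the AP-1 motif occurred only in that of ANKRD1, and the CArG box in none. A match is a description of these letters and not a measured binding site. The LATS2 match began at base 10 of the transcript. The other single matches are shown with the core, or its reverse complement CATTCC, in capitals and 12 bases on each side. They come from chr11:102110273-102110302 (YAP1, plus strand), chr3:134374499-134374528 (AMOTL2, minus strand) and chr14:22976884-22976913 (AJUBA, minus strand).

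YAP1: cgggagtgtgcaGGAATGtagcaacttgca

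AMOTL2: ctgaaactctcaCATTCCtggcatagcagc

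AJUBA: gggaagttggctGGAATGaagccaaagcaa

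These matches began 162 bases (YAP1), 69 bases (AMOTL2) and 59 bases (AJUBA) before the start of their window. For AMOTL2 and AJUBA this was the downstream one of the 2 starts (134374447 and 22976842). The windows of their upstream starts (134375417 and 22982551) held no match. The AMOTL2 match was on the strand opposite to the gene.

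**Figure D3:**
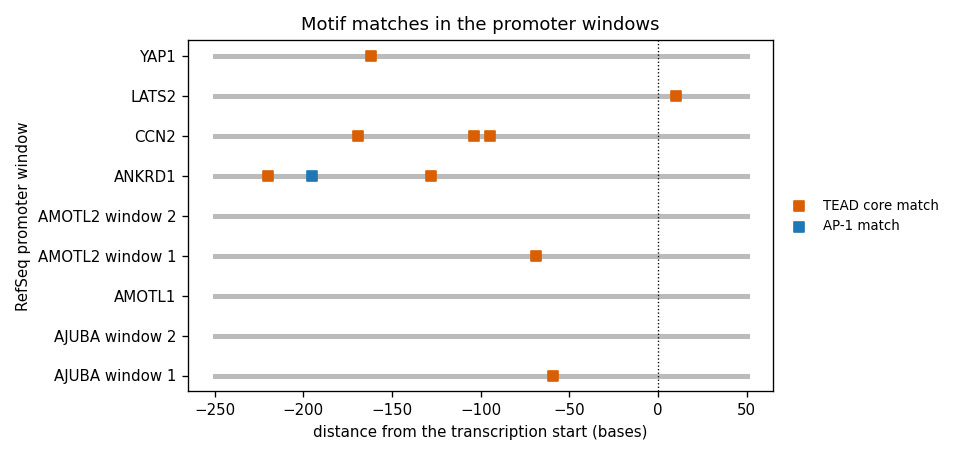
Matches to the TEAD core and the AP-1 motif in the 9 RefSeq promoter windows, by distance in bases from the transcription start (negative is upstream). CCN2 has 3 TEAD core matches, ANKRD1 has 2, and 4 other windows have 1 each.

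The other TEADs and the YAP1 paralog WWTR1 (TAZ) had no common direction. WWTR1 was higher than the control in both knockdown libraries, at 9.01 FPKM in the control, with 16.5 in knockdown library 1 and 13.1 in library 2 (mean log2 difference 0.65, limma adjusted p 0.810). TEAD2 was at 24.9 FPKM in the control, 10.1 in library 1 and 7.26 in library 2 (-1.44, adjusted p 0.499). TEAD2 was the only one of the 5 tested partners at least 2-fold lower in both libraries, against 1.7% of all genes tested. TEAD3 was at 19.0 FPKM against 17.5 in library 1 and 11.8 in library 2 (-0.38). TEAD4 was close to the control in library 1 and higher in library 2, at 14.03, 14.4 and 32.7 FPKM. It was the only tested partner at least 2-fold apart between the knockdown libraries, against 8.99% of all genes tested. VGLL4, which competes with YAP1 for TEADs, was at 17.6 FPKM in the control, 8.998 in library 1 and 5.16 in library 2 (-1.25, adjusted p 0.614). In both libraries 2 of the 5 tested partners were higher and 3 were lower, against 31.7% and 37.6% of all genes tested. The median log2 difference of the 5 partners was -0.38. None of the 5 passed limma's test. VGLL1 and VGLL3 were below the filter.

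Summed over TEAD1 to TEAD4, the level was 74.6 FPKM in the control, with 62.5 in knockdown library 1 and 79.9 in library 2. TEAD1 made up 22.3% of that sum in the control, with 32.8% in library 1 and 35.1% in library 2. The share of TEAD2 was 33.4% in the control, 16.1% in library 1 and 9.08% in library 2. YAP1 and WWTR1 together were at 28.1 FPKM in the control, 53.6 in library 1 and 24.2 in library 2. WWTR1 was 32.1% of this pair in the control, 30.7% in library 1 and 54.4% in library 2, the one library in which it exceeded YAP1.

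**Figure D4:**
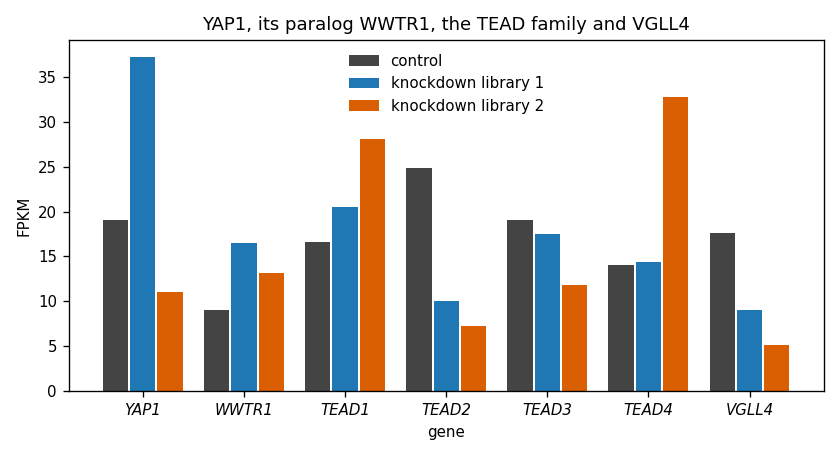
FPKM of YAP1, WWTR1, the 4 TEAD genes and VGLL4 in each library (bars, 1 library each, no error). YAP1 is highest in knockdown library 1 (37.2 FPKM), TEAD4 in knockdown library 2 (32.7 FPKM), and TEAD2 and VGLL4 in the control.

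Other genes widely used as YAP-TEAD targets showed no common direction. Of 17 such genes, 16 were in the table and 12 were tested. Both knockdown libraries were above the control for 4 and below it for 3, while 5 genes were on opposite sides, with a median log2 difference of 0.08. The shares of all genes tested were 31.7%, 37.6% and 30.7%. None of the 12 passed limma's test over all genes, with adjusted p-values from 0.106 up. The 2 genes at least 2-fold higher in both were NT5E, the surface enzyme that makes adenosine (log2 differences 3.09 and 2.59, adjusted p 0.106), and F3, tissue factor, the cell-surface trigger of clotting. Of all genes tested, 1.21% were at least 2-fold higher in both. F3 was at 7.90 FPKM in the control, 19.5 in library 1 and 28.6 in library 2 (mean log2 difference 1.47 ± 0.43 SE, limma adjusted p 0.494). GADD45A, a stress and growth arrest gene, was at 33.0 FPKM against 65.5 and 50.6 (0.78), and CRIM1 at 5.66 against 10.1 and 6.93 (0.50). ARHGEF17 was lower in both, at 6.41 FPKM against 2.87 and 2.41 (-1.03, adjusted p 0.672). The receptor kinase AXL, picked after its values were seen and not by the rule for named genes, was the only tested gene of this list 2-fold apart between the knockdown libraries. Its log2 differences were 1.04 and -0.59, and 8.99% of all genes tested were at least 2-fold apart. Of the 5 genes of this list on opposite sides, MYOF, ASAP1 and NUAK2, also picked after their values were seen, had the reverse signs, below the control in library 1 and above it in library 2.

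The Hippo kinases, adaptors and upstream regulators were centred near the control. Of 22 genes, 21 were tested. Both knockdown libraries were above the control for 5 of them and below it for 10, and 6 had opposite signs. The shares of all genes tested were 31.7%, 37.6% and 30.7%. The median log2 difference of the 21 genes was -0.05, the same as that of all genes. It was above 0 with median-ratio rescaling (0.040). None passed limma's test, with adjusted p-values of at least 0.508. LLGL1, a cell polarity gene, was at 29.5 FPKM in the control, 11.5 in library 1 and 10.1 in library 2 (-1.37 ± 0.41 SE). It was the only one at least 2-fold lower in both on the scale of FPKM + 1, against 1.7% of all genes tested. AMOT, the third angiomotin, which was past 2-fold in both only as a ratio of plain FPKM, was at 3.13 FPKM against 0.839 and 1.503 (-0.95), a direction opposite to that of AMOTL2. The LATS activators MOB1A and MOB1B differed from each other: MOB1B was at 5.37 FPKM against 13.2 and 10.1 (0.98), MOB1A at 53.0 against 47.8 and 21.4 (-0.71). LIMD1, a LIM protein related to AJUBA, was at 9.39 FPKM against 5.09 and 6.20 (-0.65). FRMD6, likewise picked after its values were seen, and MOB1A were the 2 genes at least 2-fold apart between the knockdown libraries on the scale of FPKM + 1. Of all genes tested, 8.99% were.

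Actin genes and targets of MRTF-SRF were included because CCN1, CCN2 and ANKRD1 are also known to respond to that factor. Of 14 tested, 6 were above the control in both knockdown libraries, 3 were below it in both, and 5 had opposite signs. The shares of all genes tested were 31.7%, 37.6% and 30.7%. The median log2 difference of the 14 was 0.03. FHL2, a LIM-domain cofactor, was at 8.83 FPKM in the control, 31.2 in library 1 and 16.8 in library 2 (1.28, limma adjusted p 0.614). VCL, vinculin, was at 33.3 FPKM against 52.3 and 54.2 (0.66), and ACTG1, whose many pseudogene copies make its value uncertain, at 1300.0 against 2461 and 3253 (1.12). FHL1 was lower in both, at 4.94 FPKM against 1.63 and 3.37 (-0.81). ACTA2, smooth muscle actin, had log2 differences of 0.34 and -1.75, and was at least 2-fold apart between the knockdown libraries. So were TAGLN and FLNA, both picked after their values were seen, and 8.99% of all genes tested. None of the 14 passed limma's test.

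**Figure D5:**
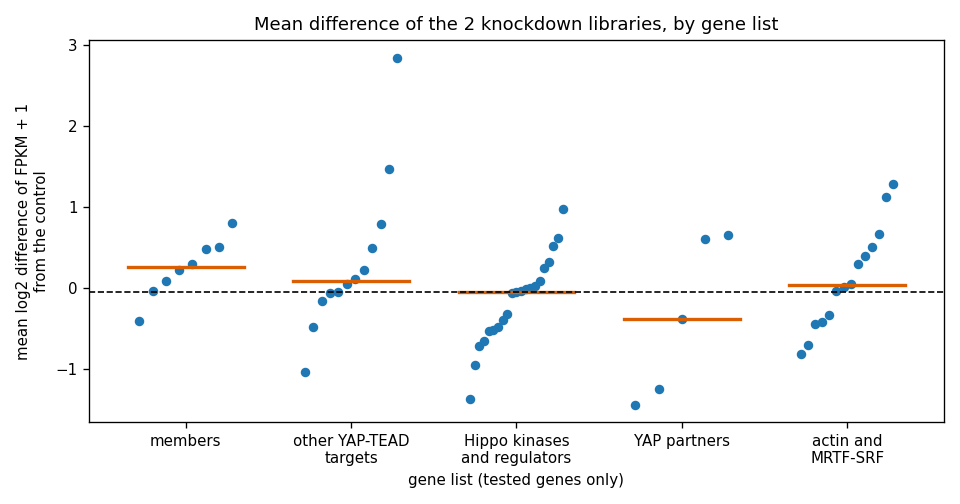
Mean log2 difference of the 2 knockdown libraries from the control for each tested gene (points) of the 9-gene set (8 tested, labelled members) and of 4 related lists, with each list's median (orange line) and the median of all genes tested (dashed line, -0.05). The medians are 0.26, 0.08, -0.05, -0.38 and 0.03 from left to right.

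Genes with the most similar pattern were found by the Euclidean distance of log2(FPKM + 1), centred on each gene's mean over the 3 libraries, among tested genes with a mean of at least 5 FPKM. With 3 libraries many genes share any pattern, so closeness is a description only. Nearest to YAP1 were ANKRD27 (13.5, 26.8 and 8.10 FPKM in the control and knockdown libraries 1 and 2, distance 0.053), MMP24OS (0.060) and IP6K1 (0.073). MMP24OS overlaps a gene on the other strand and is uncertain, since the strand setting of the counting is not given in the sources used here. Nearest to CCN1 were ANKRD13C (distance 0.0075), the tropomyosin gene TPM4 (57.9, 81.1 and 62.9 FPKM, 0.0081) and LTO1 (0.011). Nearest to CCN2 were CCDC43 (15.6, 28.1 and 28.1 FPKM, 0.013), PTS (0.016) and FNDC3A (0.018). None of the 9 genes was among these neighbours of another. LATS2, CCN2 and ANKRD1, below a mean of 5 FPKM, could not appear. Only the 3 nearest genes were listed each time, so this absence says nothing about a shared pattern.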

How the data were processed

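The deposited values are FPKM that the authors computed per gene for each of the 3 libraries, with Entrez numbers and KEGG pathway names as other annotation values deposited in the same table. Per the labels' protocols, TRIzol and a mirVana kit were used for RNA and a TruSeq stranded mRNA kit for the libraries. Trimmomatic, HISAT2 and the build GRCh38.p13 are named, per the submitters' processing notes. The read counter, strand option and gene models were "not given in the sources used here". Antisense overlaps are therefore uncertain. 0 per-sample columns were left unmapped.

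Genes with a mean of at least 1 FPKM (11216 of 15625) were compared as log2(FPKM + 1) by limma (version 3.58.1, R version 4.3.3), using a mean-variance trend and all 3 libraries, Benjamini-Hochberg adjusted over all genes, threshold 0.05. With 1 control there is 1 residual degree of freedom and 10.92 prior degrees of freedom, and the lone control is assumed to vary like the knockdown libraries. The scripts were tested on simulated data, where limma made more false calls than its nominal rate in this design. Ratios of the FPKM values gave whole reads in 100% of genes (relative tolerance 1e-09). These smallest reads can be below the true numbers by a common factor per gene, and the exact 95% intervals (Poisson for levels, binomial for ratios) are then too wide. Intervals cover counting error only. No fold was given where both libraries had fewer than 3 counts. In bulk RNA, fewer cells of a type and less RNA per cell cannot be told apart.

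The KEGG Hippo signaling pathway in the deposited annotation has 113 tested genes and holds 1 of the 2 genes called by limma over the whole table, which is not reported here. The genes and lists were chosen with earlier results of these data known. Named were all 9 genes, the 5 tested genes of each list farthest from 0, and the 3 nearest patterns to YAP1, CCN1 and CCN2. Promoters are from RefSeq (GRCh38.p14) and gene coordinates from GENCODE 29 (GRCh38). Alternatives were other pseudocounts, filters, scalings, limma settings and fold thresholds, and each knockdown library left out. Leaving CCN2 out of the median was chosen after seeing the data.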

Additional observations from a re-analysis of the deposited data

How the results depend on the processing

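The count of called genes among the 8 tested was 0 under every limma alternative run, with adjusted p-values from 0.706 to 0.997. Leaving out a knockdown library left no residual degrees of freedom, so it gave values with no test. All genes called fell from 2 to 1 with a pseudocount of 5, median-ratio rescaling, no mean-variance trend or robust empirical Bayes, and to 0 with no filter, quantile normalization or prior degrees of freedom set to 5. On the scale of the log2 values CCN2 became the 1 gene of the set at least 2-fold in both libraries with a pseudocount of 0.1, with quantile normalization and at 1.5-fold in place of 2-fold. Over all genes that count, 327, was 531 with a pseudocount of 0.1, 101 with 5, 1449 at 1.5-fold and 38 at 3-fold. With 1 knockdown library left out, 1023 to 1141 genes were at least 2-fold in the remaining library. That is a looser rule than 2-fold in both, so these counts are not comparable with 327. Of 70 alternative values of the 8 genes with a test, 68 kept their sign and side of the threshold, and of 16 values with 1 library left out, which have no test, 13 kept their sign. The 5 that changed sign were LATS2 with median-ratio rescaling (0.037) and quantile normalization (0.092), and values with 1 library left out: YAP1 from -0.742 to 0.927, LATS2 from -0.274 to 0.197 and AMOTL1 from -0.039 to 0.489. The median of the Hippo regulators changed sign with median-ratio rescaling (0.040). The cause of these changes was not tested, except that a larger pseudocount shrinks low genes by construction. Depth limits ANKRD1 and CCN2, the genes with the fewest reads.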

Other observations

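The neighbours of YAP1 on chromosome 11 were read by position alone, as the 2 nearest tested genes on each side in RefSeq order. BIRC3, the first tested gene after YAP1, was at 1.33 FPKM in the control, with 0.848 in knockdown library 1 and 1.15 in library 2. BIRC2, its paralog and the next tested gene, encodes an inhibitor of apoptosis and was at 17.2 FPKM against 19.5 and 16.5. On the other side ARHGAP42 was at 1.43 FPKM against 1.80 and 1.18, and JRKL at 4.98 against 6.25 and 2.62. BIRC2, ARHGAP42 and JRKL were on the same sides of the control as YAP1 in both libraries. Their log2 differences of FPKM + 1 lay between -0.73 and 0.28. All were smaller in size than those of YAP1 in the same library (0.93 and -0.74), and those of BIRC2 were 0.18 and -0.05. Of all genes tested, 30.7% lay on opposite sides of the control, in either order. The share with the order of YAP1 was not counted. Distances along the chromosome were not measured, so no local pattern is read from these values. BIRC3 was below the control in both libraries.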
